A study of Mus musculus with 6 samples.

Results

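The 6 RNA-seq libraries of mouse BMSCs (bone marrow mesenchymal stem cells, grown out of marrow by adherence to plastic) fell into 2 sets that crossed the treatment labels, and the difference between these sets is described here. Library set 1 held 3 of the 6 libraries (control 2, RA-treated 1 and RA-treated 2) and library set 2 the other 3 (control 1, control 3 and RA-treated 3). The sets were chosen from the expression values themselves, by which side of zero each library took on the main axis of variation (principal component 1, or PC1) of the 1000 genes that varied most. The gene differences between them were therefore fixed in part by that choice, and they are given as a description, with no test. PC1 took 57.2% of the variance of these genes. Nearest to its zero lay control 2 on the set 1 side, with a score of 21.37, and control 3 on the set 2 side, with a score of -26.45. The farthest scores were 34.68 (RA-treated 2) and -29.27 (control 1).

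The study asked how all-trans retinoic acid (RA, the active form of vitamin A) acts on BMSCs, and for these libraries it compared 3 libraries from cells given RA with 3 from cells given DMSO, its solvent. All cells came from C57BL/6 mice with no engineered allele named in the labels, and all were kept in low-glucose medium with 20% serum and 10 µM of a ROCK inhibitor at 5% oxygen. The labels give 1 µM RA for 48 h, while the study's methods name a lower dose and a shorter time. The labels also speak of fewer biological replicates than the 3 libraries deposited per group, and nothing used here says that the libraries are separate cultures or gives a batch or date for them.

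BMSCs make collagen-rich matrix, cytokines and chemokines, and they can take on the contractile features of pericytes. Marrow that adheres to plastic also carries macrophages, which clear debris, recycle iron and lipid, and answer microbial signals by way of NF-κB (a transcription factor of inflammation) or interferons (secreted antiviral signals). The genes compared below belong to these programs. A bulk library cannot tell fewer cells of a type apart from less RNA per cell.

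**Figure D1:**
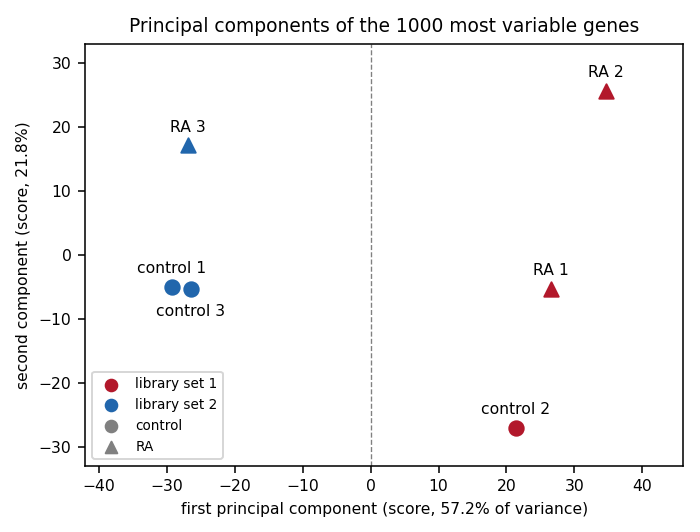
Scores of the 6 libraries on the first (x) and second (y) main axes of variation (PC1 and PC2) of the 1000 genes that varied most, with colour for the library set, circles for control and triangles for RA-treated libraries. The 3 set 1 libraries lie between 21.37 and 34.68 on PC1 and the 3 set 2 libraries between -29.27 and -26.45.

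The libraries held 14737636 to 18511905 counts, and every set 1 library was deeper than every set 2 library. CPM, the unit used below, sets the counts of a gene against its library's total after a scaling of the totals. A floor of 3 counts in a library corresponded to 0.162 to 0.204 CPM on the unscaled totals, and such floors cover counting error only. Reads of mitochondrial genes took 1.51% of the counts of RA-treated 2 and 0.582% to 0.783% of those of the other libraries. The sum over 14 macrophage markers lay between 19590 and 20605 CPM in set 1 and between 17857 and 19740 CPM in set 2, against 2658 to 2839 CPM and 1869 to 2037 CPM for 16 mesenchymal stromal markers. The labelled cell type therefore stood beside a large macrophage signal in all 6 libraries. Xist was at 742 to 1135 CPM and the Y-linked Kdm5d at no more than 0.894 CPM in every library.

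Libraries differed in more genes across the sets than within them, an order that the choice of the sets from the same values favoured. Between 262 genes (control 1 and control 3) and 1378 genes (control 2 and RA-treated 2) were at least 2-fold apart between libraries of 1 set, and between 1615 and 2250 genes between libraries of different sets. The next largest count within a set was 601, between RA-treated 1 and RA-treated 2. A gene was counted as higher or lower in set 1 when the fitted difference, with treatment as a covariate, was at least 2-fold and the 3 values of one set lay wholly above the 3 of the other. Of 13842 genes tested, 738 were higher in set 1 (5.33% of the genes) and 601 were lower (4.34%). The counts of list members given below stand beside these shares. With at least 4-fold the counts were 115 and 130. The median difference over all genes tested was 0.00033 on the log2 scale, and the values of the sets did not overlap in 47.7% of the genes.

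**Figure D2:**
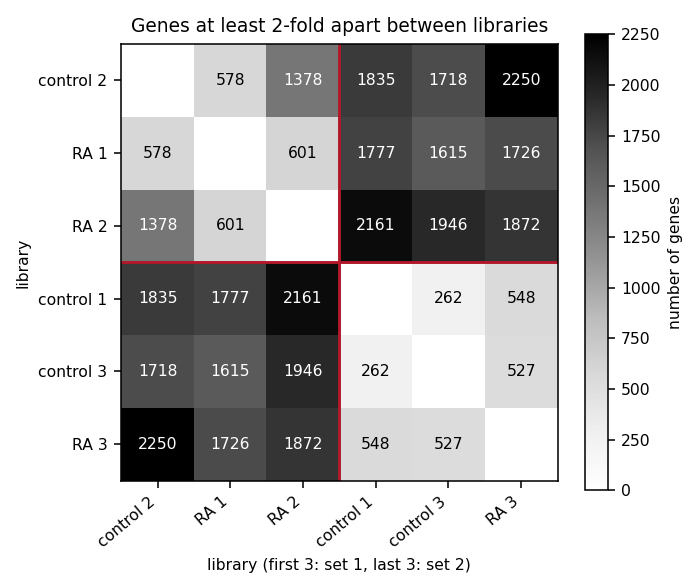
Number of genes at least 2-fold apart for each pair of libraries, with the set 1 libraries first and red lines between the sets. Pairs across the sets hold 1615 to 2250 genes, and pairs within a set hold 262 to 1378.

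Chemokines, the secreted proteins that draw leukocytes into tissue, were higher in set 1. Of 20 chemokine ligand genes tested, 13 were higher and 0 lower, with a median difference of 1.68 on the log2 scale. The list's median was 1.59 among the control libraries alone and 1.52 among the RA-treated libraries alone. The genes lay in clusters: those of Ccl2, Ccl7, Ccl12 and Ccl5 on chromosome 11, and those of Cxcl1, Cxcl2, Cxcl3, Cxcl5, Ppbp and Pf4 on chromosome 5. These 10 genes were higher in set 1, as was Cxcl10 farther along chromosome 5, while Cxcl9 beside it differed by 1.97 with overlapping sets. Ppbp had no more than 3 counts in any set 2 library, and Cxcl3 was at no more than 1.89 CPM in any library. Pf4 differed by 0.54 among controls and by 1.82 among RA-treated libraries. Ccl9, Ccl3 and Ccl4, also on chromosome 11, differed by 0.66, 0.29 and 0.49 and were not counted, and Ccl6, the 1 member below 0, differed by -0.96.

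The promoters of Cxcl1, Cxcl2 and Il6 are shown because these 3 genes were higher in set 1 and each holds a κB motif, the binding sequence of NF-κB. Sequences are RefSeq promoters of GRCm38.p6, read 5′ to 3′ on the gene's strand, with the motif in capitals. The Cxcl1 stretch is chr5:90891130-90891228 (plus strand), the Cxcl2 stretch chr5:90903758-90903856 (plus strand) and the Il6 stretch chr5:30013026-30013124 (plus strand).
Cxcl1: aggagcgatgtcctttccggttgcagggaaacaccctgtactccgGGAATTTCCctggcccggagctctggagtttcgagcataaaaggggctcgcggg
Cxcl2: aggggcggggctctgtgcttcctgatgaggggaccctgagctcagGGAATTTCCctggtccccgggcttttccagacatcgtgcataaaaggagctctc
Il6: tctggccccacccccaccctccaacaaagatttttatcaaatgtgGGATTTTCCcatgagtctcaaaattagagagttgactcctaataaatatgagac
The motif searched was GGANTTTCC on both strands, in windows of 250 bases before to 50 bases after the start. Promoters were matched for 10094 of 13833 tested symbols, and 163 of them (1.61%) held the motif. It was in 11 of 525 promoters of genes higher in set 1 (2.10%) and in 14 of 424 of genes lower in set 1 (3.30%). A match describes letters and does not show that a factor binds there.

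Ccl2 (ENSMUSG00000035385, chromosome 11 of GRCm38 from 82035571 to 82037453), which attracts monocytes, was at 157, 93.5 and 51.1 CPM in control 2, RA-treated 1 and RA-treated 2. In control 1, control 3 and RA-treated 3 it was at 12.5, 12.1 and 7.23 CPM. The highest set 2 library lay well below the lowest set 1 library, and the fitted difference was 3.52 (log2). Its neighbour Ccl7 (ENSMUSG00000035373), another monocyte attractant, had 136, 74.2 and 54.0 CPM in set 1 and 12.7, 12.9 and 3.68 CPM in set 2, a difference of 3.68. In both genes the RA-treated libraries lay below the controls of their own set.

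Among the neutrophil attractants the order of control and RA-treated libraries varied. Cxcl1 (ENSMUSG00000029380) was at 59.5 CPM in control 2, 16.7 in RA-treated 1 and 14.3 in RA-treated 2, against 4.97, 5.50 and 4.64 CPM in set 2. Its difference of 2.73 became 1.74 without control 2 and 3.503 without RA-treated 3. Cxcl5 was at 73.1 ± 32.8 CPM in set 1 and 13.6 ± 3.98 CPM in set 2 (SD, n = 3), and its difference of 2.45 became 1.60 without control 2 and 3.27 without RA-treated 3. For Cxcl2 the set 1 values were 13.5, 14.9 and 9.32 CPM and the set 2 values 0.981, 1.79 and 2.46 CPM, with control 2 inside the range of the RA-treated libraries of its set. Ccl5, which attracts T cells and monocytes, differed by 2.83, by 1.97 without control 2 and by 3.45 without RA-treated 3.

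Il6 (ENSMUSG00000025746, chromosome 5), an inflammatory cytokine, was at 11.6 CPM in control 2, 2.39 in RA-treated 1 and 2.73 in RA-treated 2. In set 2 it was at 0.700, 0.619 and 0.136 CPM, from 10, 9 and 2 counts, so the difference of 4.13 rests on few reads. Nos2, the inducible nitric oxide synthase of activated macrophages, was at 15.9 ± 7.13 CPM in set 1 and 2.07 ± 0.278 CPM in set 2 (SD, n = 3). Prostaglandin synthase Ptgs2 and the acute-phase genes Hp and Lcn2 were also higher in set 1, with differences of 2.04 (1.38 without control 2), 1.92 and 1.61. Of the 26 genes of the NF-κB and acute inflammatory list, 5 were higher (Il6, Nos2, Ptgs2, Lcn2 and Saa3) and 0 lower. The median was 0.12, and Il1b and Tnf differed by -0.93 and 0.79. Other members lay wholly apart by less than 2-fold in both directions. Relb, Nfkb2, Bcl3 and Icam1 were below 0 (-0.68, -0.52, -0.74 and -0.55), and Sod2, Vcam1 and Nfkbia above it (0.93, 0.90 and 0.68). In its 20 members with a promoter, 8 held the κB motif, as did 1 of the 4 that were also past the rule.

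**Figure D3:**
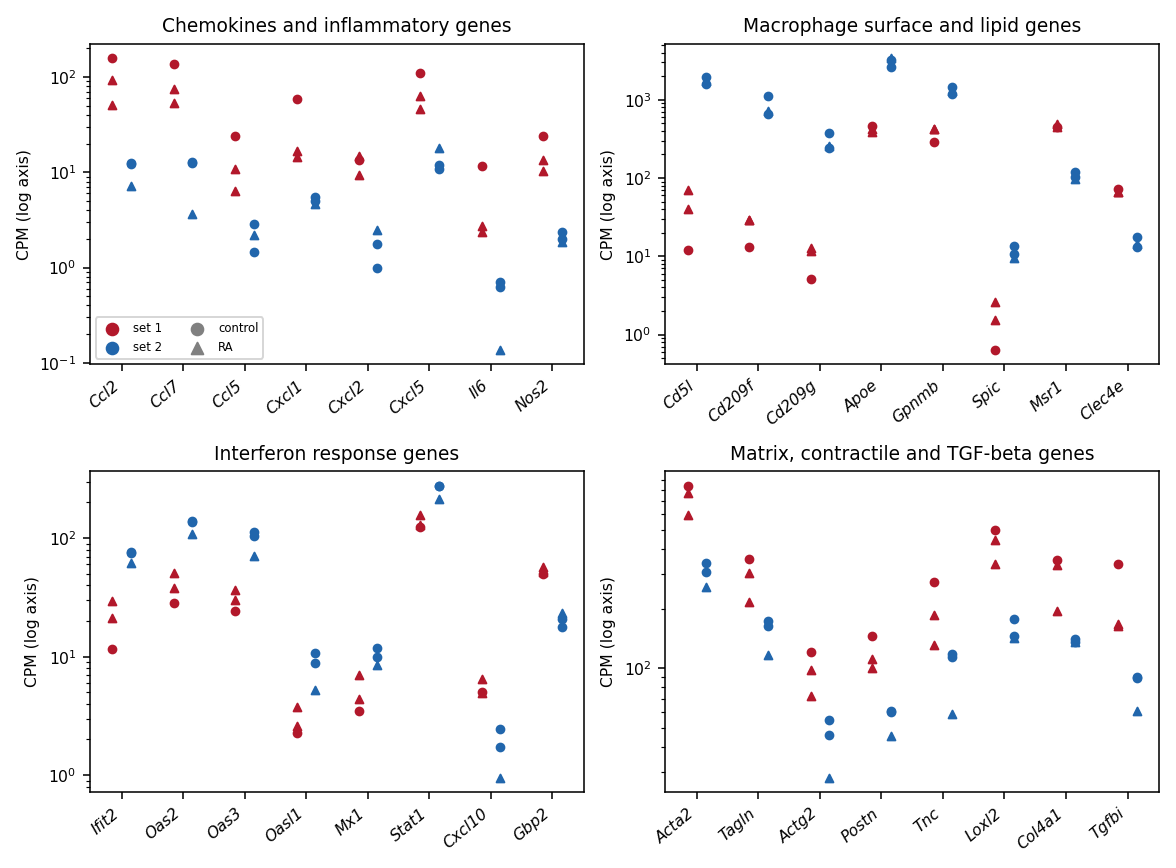
CPM per library on a log axis for 32 genes in 4 groups, with set 1 in red at the left and set 2 in blue at the right of each gene, circles for control and triangles for RA-treated libraries. Ccl2 runs from 51.1 to 157 CPM in set 1 and from 7.23 to 12.5 CPM in set 2, while Cd5l runs from 12.1 to 69.6 CPM and from 1575 to 1958 CPM.

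Of 14 genes known from resident and heme-recycling macrophages, 4 were lower and 1 higher in set 1, with a median of -0.35. Cd5l (ENSMUSG00000015854, chromosome 3 of GRCm38 from 87357881 to 87371073), a protein that macrophages secrete and that keeps them alive, was at 12.1, 40.4 and 69.6 CPM in control 2, RA-treated 1 and RA-treated 2, and at 1958, 1575 and 1758 CPM in control 1, control 3 and RA-treated 3. The lowest set 2 library lay far above the highest set 1 library, in controls as well as after RA. The fitted difference of -6.01 was the lowest of all genes tested, and leaving out control 2 gave -4.99, leaving out RA-treated 3 -7.19.

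The C-type lectin receptors Cd209f and Cd209g, which bind sugars on microbes and lie close together on chromosome 8, differed by -5.29 and -5.06. Cd209f was at 23.9 ± 9.14 CPM in set 1 and 836 ± 256 CPM in set 2 (SD, n = 3), and Cd209g at 9.80 ± 4.05 CPM and 293 ± 76.3 CPM. Without control 2 these differences were -4.61 and -4.41, and without RA-treated 3 they were -6.07 and -5.91. Their neighbour Cd209c was near the floor in all libraries, at 0.500 to 0.824 CPM. Of 16 C-type lectin genes tested, 5 were lower and 2 were higher in set 1. Clec4n (dectin-2), Clec10a and the mannose receptor Mrc1 were lower, with differences of -2.28, -1.87 and -1.50. The 2 higher ones were Clec4e (Mincle, a sensor of microbial glycolipids and dead cells) and Clec5a, with 2.20 and 1.63.

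The scavenging gene Msr1 and the lipid export genes past the rule went opposite ways. Msr1, the class A scavenger receptor, was at 452, 488 and 444 CPM in set 1 and 104, 119 and 97.4 CPM in set 2, a difference of 2.14 with little spread. Apoe, which carries cholesterol out of macrophages, was at 456, 393 and 417 CPM in set 1 and 2656, 3232 and 3370 CPM in set 2, a difference of -2.87. Control 2 was the highest Apoe library of set 1 and RA-treated 3 the highest of set 2, so the treatments had no common order. Of 14 genes of the LXR pathway (the nuclear receptors that switch on lipid export), 4 were lower and 0 higher, with a median of -0.43. Apoc2, Pltp and the transporter Abcg1 followed Apoe with -2.19, -1.73 and -1.25, while its partner transporter Abca1, at -0.86, was not counted. Cholesterol synthesis genes held 0 members past the rule in either direction among 23, with a median of -0.18.

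Lysosomal genes differed by smaller amounts. The sum of 35 lysosomal enzyme and proton pump genes lay between 16722 and 18924 CPM in set 1 and between 26985 and 31690 CPM in set 2. The list's median was -0.48, with 32 members below 0, although only Psap (prosaposin) and Man2b1 were counted as lower and Ctsk (cathepsin K) as higher, a share of lower genes near the 4.34% of all genes tested. Gpnmb, a membrane glycoprotein of lysosome-rich macrophages, was at 377 ± 76.4 CPM in set 1 and 1307 ± 126 CPM in set 2 (SD, n = 3). Of 12 genes that answer nutrient signals by way of the MiT-TFE factors (the regulators of lysosome genes), 3 were lower, with Rragd (a GTPase of the lysosomal nutrient sensor) at -2.36 and Flcn at -1.59. Of 13 iron handling genes 4 were lower and 0 higher. Transferrin (Trf) differed by -2.26, the iron exporter Slc40a1 by -1.61, the ferritin receptor Ncoa4 by -1.17 and ceruloplasmin (Cp) by -1.13. Hmox1, which breaks down heme, went the other way by 0.61 and was not counted. Spic, the transcription factor of iron-recycling macrophages, was at 0.638 to 2.60 CPM in set 1 and 9.55 to 13.4 CPM in set 2, with a difference of -2.98 that became -2.20 when control 2 was left out and -4.23 when RA-treated 3 was.

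The general macrophage markers did not share this direction. Their 14 genes had a median of -0.10, with the chemokine receptor Cx3cr1 higher (1.25) and Mrc1 and the phagocytic receptor Mertk (-1.08) lower. Adgre1 (F4/80) and Csf1r, the receptor that macrophages need to live, were at 4463 to 5066 CPM and 947 to 1098 CPM in set 1, and at 5752 to 6379 CPM and 1100 to 1396 CPM in set 2. Lyz2 was higher in set 1, at 8722 to 9779 CPM against 5543 to 6629 CPM, a difference of 0.62. Adgre1 and Lyz2 therefore kept the sets apart, but by less than 2-fold. For Csf1r the sets all but touched, at 1098 CPM in RA-treated 1 and 1100 CPM in control 1.

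Of 37 type I interferon response genes tested, 11 were lower in set 1 and 2 higher, 33 had a difference below 0, and the median was -0.76. The list's median was -1.05 among controls and -0.49 among RA-treated libraries. Ifit2, which blocks translation of viral RNA, was at 11.6, 21.4 and 29.7 CPM in control 2, RA-treated 1 and RA-treated 2, and at 76.6, 75.5 and 61.4 CPM in control 1, control 3 and RA-treated 3. The sets stood farther apart in the controls than in the RA-treated libraries for this gene, and its difference of -1.96 became -1.26 when control 2 was left out and -2.71 when RA-treated 3 was. Oas2 and Oas3, sensors of double-stranded RNA that adjoin each other on chromosome 5, differed by -1.78 and -1.61.

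The Oas3 promoter is shown as the example of an interferon-stimulated response element in a gene lower in set 1. It is the RefSeq stretch chr5:120777681-120777779 of GRCm38.p6 on the minus strand, and the capitals mark the first of 2 overlapping matches.
Oas3: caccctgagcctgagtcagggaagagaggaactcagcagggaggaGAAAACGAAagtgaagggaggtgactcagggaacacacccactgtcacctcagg
The letters searched were GAAANNGAA on both strands, and 903 of the 10094 promoters (8.95%) held them. They were in 17 of 27 listed interferon genes with a promoter, in 51 of 525 promoters of genes higher in set 1 (9.71%) and in 58 of 424 of genes lower in set 1 (13.7%).

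The 2 interferon genes that were higher in set 1 were Cxcl10 and Gbp2, which also answer NF-κB or interferon gamma. Gbp2, a GTPase that attacks vacuoles holding microbes, was at 50.3, 51.5 and 57.3 CPM in set 1 and 17.9, 20.7 and 23.3 CPM in set 2, so its values lay opposite to those of Oas2, with 39.1 ± 11.5 and 128 ± 16.6 CPM (SD, n = 3). Of 10 Toll-like receptor genes 2 were lower, Tlr9 (a sensor of unmethylated DNA) by -2.35 and Tlr7 (a sensor of single-stranded RNA) by -1.50. Tlr4, the receptor of bacterial lipopolysaccharide, was at 48.2 to 69.3 CPM in set 1 and 42.4 to 63.8 CPM in set 2, and these ranges overlapped. MHC class I genes had a median of -0.42 with 1 of 14 lower, and MHC class II genes a median of -0.49 with 1 of 5 lower. Each of these counts is a single member, beside a share of 4.34% lower among all genes tested. B2m, the constant chain of MHC class I, overlapped between the sets, with RA-treated 2 the highest of all libraries at 1526 CPM.

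Contractile, matrix and TGF-β genes past the rule were all higher in set 1. Of 14 contractile and pericyte genes 7 were higher and 0 lower, with a median of 0.99. Acta2 (smooth muscle actin) was at 835, 768 and 595 CPM in set 1 and 306, 341 and 257 CPM in set 2, a difference of 1.39. Of 33 collagen and fibrillar matrix genes 9 were higher and 0 lower, with a median of 0.93, and 3 of the 33 lay below 0. The higher ones included the crosslinking enzyme Loxl2 (1.54), the matricellular proteins Tnc (1.33) and Postn (1.24), and the basement membrane collagen Col4a1 (1.15). Col1a1, the main collagen of bone, was at 1648, 1131 and 563 CPM in set 1 and 732, 779 and 414 CPM in set 2. Its ranges overlapped because RA-treated 2 lay below both set 2 controls, so it was not counted.

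Response genes of the signals that act on matrix followed. Of 14 TGF-β response genes 5 were higher and 0 lower, with a median of 0.89, among them Tgfbi, a secreted matrix protein, with 1.68. Tgfbi was at 336, 164 and 168 CPM in set 1 and 90.1, 89.5 and 60.5 CPM in set 2. Of 15 BMP response genes 5 were higher and 0 lower, with a median of 0.90, and Id1, an inhibitor of differentiation factors, was at 32.4, 33.4 and 13.4 CPM in set 1 and 5.04, 5.57 and 4.71 CPM in set 2. Of 15 YAP and TEAD target genes (read-outs of cell stretch and density) 4 were higher and 0 lower, with a median of 0.87, among them Ankrd1 and Ccn2 with 1.94 and 1.01.

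The mesenchymal stromal markers themselves held no member past the rule among 16, although 15 had a difference above 0 and the median was 0.58. Pdgfra and Pdgfrb, the growth factor receptors that mark stromal cells, did not overlap between the sets. They differed by 0.999, just under 2-fold, and by 0.90. Cxcl12, the niche chemokine, differed by 0.21 and overlapped. Lepr, a marker of marrow stromal cells, was at 0.479 to 0.490 CPM in the 3 controls and at 2.50, 3.04 and 9.48 CPM in RA-treated 1, 2 and 3, so that the sets differed within the RA-treated libraries and overlapped as a whole (-1.35). Lineage genes were mixed: of 11 osteoblast genes 2 were higher and 1 lower (the sphingomyelinase Smpd3, at -2.19), and of 11 adipocyte genes 0 were higher and 2 lower (Apoe and the transcription factor Cebpa). Of 14 IGF axis genes Igf1 alone was past the rule, at 78.4 ± 32.6 CPM in set 1 and 237 ± 39.0 CPM in set 2 (SD, n = 3).

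Of 21 ribosome biogenesis and MYC response genes tested, 9 were higher in set 1 and 0 lower, all 21 had a difference above 0, and the median was 0.89. Their sum lay between 1972 and 2073 CPM in set 1 and between 1195 and 1203 CPM in set 2, so that neither set varied by as much as the gap between them. Myc itself was at 57.9 ± 7.68 and 26.6 ± 0.465 CPM (SD, n = 3), and Odc1, the first enzyme of polyamine synthesis, differed by 1.41. The ribosomal protein genes did not share this: 0 of 28 were past the rule, and their median of -0.07 became 0.0023 when libraries were scaled to the total count alone. DNA replication and mitosis genes, for comparison, had 31 of 35 higher with a median of 1.84, and 3 of 5 replication-dependent histone genes were lower.

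Of 21 genes induced by ATF4, the factor that answers amino acid shortage, 7 were higher in set 1 and 0 lower, with a median of 0.72. Psat1, an enzyme of serine synthesis, was at 50.6, 57.3 and 50.5 CPM in set 1 and 17.6, 15.1 and 14.4 CPM in set 2. The cystine transporter Slc7a11 had 30.4, 27.6 and 16.9 CPM in set 1 and 7.70, 9.21 and 9.69 CPM in set 2, and its promoter is shown because it carries the amino acid response element in both orientations. The stretch is chr3:50443627-50443724 of GRCm38.p6 on the minus strand, and the capitals mark 1 of its 2 matches to TTGCATCA or the reverse complement.
Slc7a11: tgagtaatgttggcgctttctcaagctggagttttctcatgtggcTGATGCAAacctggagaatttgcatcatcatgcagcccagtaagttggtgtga
Of all promoters, 77 (0.763%) held this motif, as did 6 of 20 listed genes with a promoter, 6 of 525 promoters of genes higher in set 1 (1.14%) and 6 of 424 of genes lower in set 1 (1.42%). Of the 6 listed genes past the rule with a promoter, 2 held it. The unfolded protein response, which shares targets with ATF4, had 0 of 16 members past the rule and a median of 0.24, and Ddit3 overlapped between the sets.

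Glycolysis and oxygen genes were mostly above 0 but seldom past the rule. Of 19 glycolysis genes 3 were higher (Eno1, Pgk1 and Pfkp, with 1.10, 1.07 and 1.02) and 1 lower. The lower one was Pfkfb3, which makes the activator of phosphofructokinase, at 111, 103 and 127 CPM in set 1 and 308, 273 and 279 CPM in set 2. The hypoxia list gave 2 signs: its median was 0.58 with 13 of 17 members above 0, but its summed level was 2210 to 2299 CPM in set 1 against 3162 to 3767 CPM in set 2. Ndrg1, a stress-response gene, was at 1046 to 1242 CPM in set 1 and 2437 to 3112 CPM in set 2, and without it the sum was 1057 to 1190 CPM against 655 to 747 CPM. Respiratory chain genes held 0 of 30 past the rule, with a median of 0.05. Among mitochondrially encoded genes mt-Atp8 ranged from 12.6 CPM (control 2) to 473 CPM (RA-treated 2) in set 1, against 9.42 to 12.3 CPM in set 2. Its difference of 2.40 rested on single libraries, at 0.46 without RA-treated 2, 0.05 without RA-treated 3 and 4.72 without control 2.

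Genes of quiescence and of the circadian clock were among the lower ones. Of 17 FOXO target and quiescence genes 4 were lower and 0 higher. The cell death activator Bmf differed by -2.59, the stress protein Sesn1 by -1.48 and the glucocorticoid-induced Tsc22d3 by -1.08. The cell cycle inhibitor Cdkn1c differed by -3.90, but it had 1, 2 and 4 counts in the set 1 libraries, and leaving out single libraries gave -3.08 (control 2) to -5.52 (RA-treated 3). Of 15 clock genes 3 were lower, and Dbp, an output factor of the clock, was at 14.4, 16.3 and 15.6 CPM in set 1 and 52.2, 51.1 and 61.8 CPM in set 2. The clock genes Per1 and Nr1d1 overlapped between the sets, and the list's median was -0.08.

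Other genes with large differences had no single program. Tmtc4, a protein of the endoplasmic reticulum, was at 24.0, 34.2 and 42.0 CPM in set 1 and 232, 228 and 246 CPM in set 2. The chemokine receptor Cxcr4 was at 2.20 ± 0.630 and 21.2 ± 3.11 CPM (SD, n = 3), and Rasgrp1, an activator of Ras, differed by -3.37. Kcna2 (a potassium channel), Omg (a myelin glycoprotein) and Slit1 (a guidance cue) were at -4.38, -3.55 and -3.19. Kcna2 had 1 count in control 2, and its difference was -3.58 without that library and -7.93 without RA-treated 3. Leaving out RA-treated 3 moved Rasgrp1 to -4.14 and Omg to -4.62, and leaving out control 2 moved Omg to -2.83. Immunoglobulin Ighm, a B cell gene, had 3, 13 and 12 counts in set 1 and 147, 138 and 222 counts in set 2, a difference of -4.74 (-5.89 without RA-treated 3). All 3 lymphoid genes tested were lower in set 1, where they had few counts (Cd4 had 5, 5 and 13, against 25, 47 and 46 in set 2). They passed the filter on low counts mainly through set 2, so their direction was fixed in part by that filter. The list summed to no more than 23.7 CPM in any library. The lymphocyte genes Cd79a, Ms4a1, Cd3e and Igkc had no more than 1 count in any library. The T cell gene Trac had 14 counts in control 2 and no more than 1 elsewhere. Of 7 neutrophil genes 3 were higher, with a summed level of 180 to 361 CPM in set 1 and 90.1 to 133 CPM in set 2. Most of it came from Mmp9, which macrophages also make. Csf3r and S100a9 lay wholly lower in set 1 by less than 2-fold (-0.58 and -0.91) and Mmp8 wholly higher (0.92), while S100a8 overlapped (0.11). The granule genes Ltf and Ngp had no more than 3 counts in any library. Gm2223 and Gm45140 were also among the largest differences, but Gm2223 is annotated as a processed pseudogene, so that its count is uncertain, and RA-treated 2 held most of its reads.

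**Figure D4:**
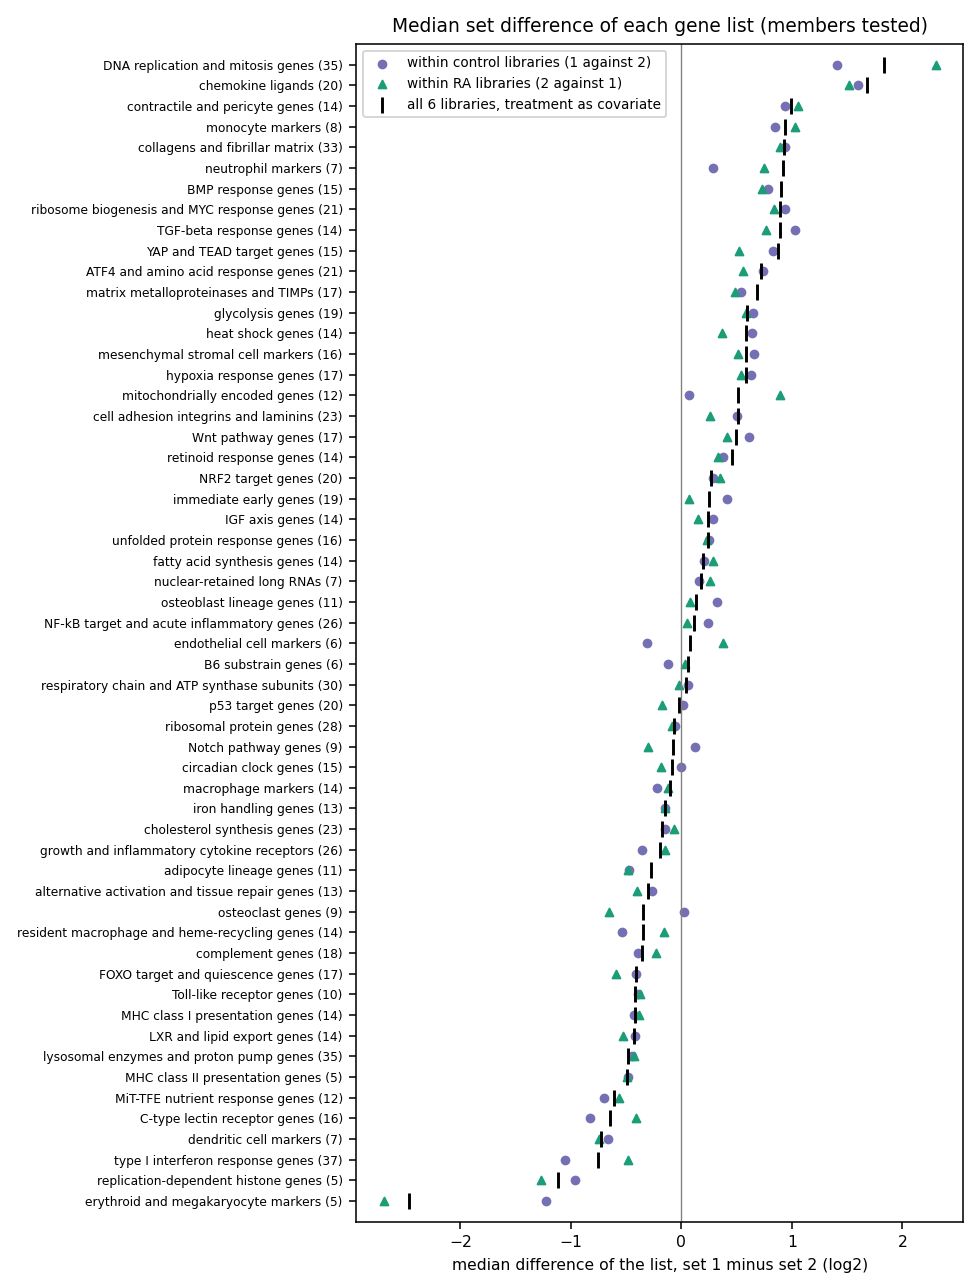
Median set difference (set 1 minus set 2, log2) of each gene list with at least 5 tested members, with circles for the difference within control libraries, triangles within RA-treated libraries and bars for the fit over all 6. Chemokine ligands lie at 1.68 and the type I interferon response at -0.76 in the fit over all 6 libraries.

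The RA treatment was then compared with the library set as a covariate, since the set rule did not use the treatment labels. The covariate came from the same counts, so these p-values may be too small, and they measure only the spread between these libraries. With edgeR's quasi-likelihood test, 117 genes rose after RA (0.845% of 13842 genes) and 124 fell (0.896%) at a Benjamini-Hochberg adjusted p under 0.05. Of the 1339 genes past the set rule, 31 were called for RA (2.32%), against 1.74% of all genes tested. Of the 31, 21 were higher in set 1 and fell after RA, and 5 were lower in set 1 and rose. The other 5 comprised 4 genes higher in set 1 that rose and 1 lower in set 1 that fell. The covariate holds the set coefficient and the RA coefficient in 1 fit, so these counts are a description of 31 genes.

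The group of 21 included Il6 and Ccl7 beside genes of the matrix and of other functions. Il6 fell by 2.19 on the log2 scale (standard error 0.23, edgeR adjusted p = 0.0064), and Ccl7 fell by 1.33 (standard error 0.19, edgeR adjusted p = 0.0181). The collagen receptor Itga11 and the actin regulator Enah each fell by 1.05, with edgeR adjusted p of 0.00858 and 0.00466. Tgfbi, Tnc, Sparc and Postn fell by 0.80, 0.88, 0.52 and 0.44. Each fell within both sets, but the genes were picked by the RA difference in these same libraries, so this adds no support. Control 2 is the only control of set 1, and RA-treated 3 the only RA-treated library of set 2. Within set 1 the Il6 value was -2.14, and within set 2 it was -1.58, from 10, 9 and 2 counts. For Ccl2 the RA difference was -0.98 with an edgeR adjusted p of 0.105, and for Cxcl1 it was -1.26 with an edgeR adjusted p of 0.146.

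Ednrb, the endothelin B receptor, was lower in set 1 and rose after RA, at 3.51 CPM in control 2 and 14.0 in both RA-treated libraries of set 1, and at 19.8, 27.8 and 57.2 CPM in control 1, control 3 and RA-treated 3 (log2 change 1.57, edgeR adjusted p = 0.0150). Among genes higher in set 1, the gelatinase Mmp9 and the transcription factor Hivep2 rose by 0.88 and 1.02 (edgeR adjusted p = 0.0167 and 0.00356). The Ras activator Rasgrp4 was lower in set 1 and fell by 1.17 (edgeR adjusted p = 0.0149). Other genes with large set differences were not among the 31, and the RA differences of Cd5l, Apoe, Msr1 and Nos2 were 0.97, 0.01, -0.07 and -0.77, with edgeR adjusted p of 0.393, 0.968, 0.733 and 0.166. The number of RA calls depended on which library was left out, being 36 without control 1, 50 without control 3, 55 without control 2, 62 without RA-treated 3 and 782 without RA-treated 2, while it was 203 without RA-treated 1 and 241 with all libraries.

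**Figure D5:**
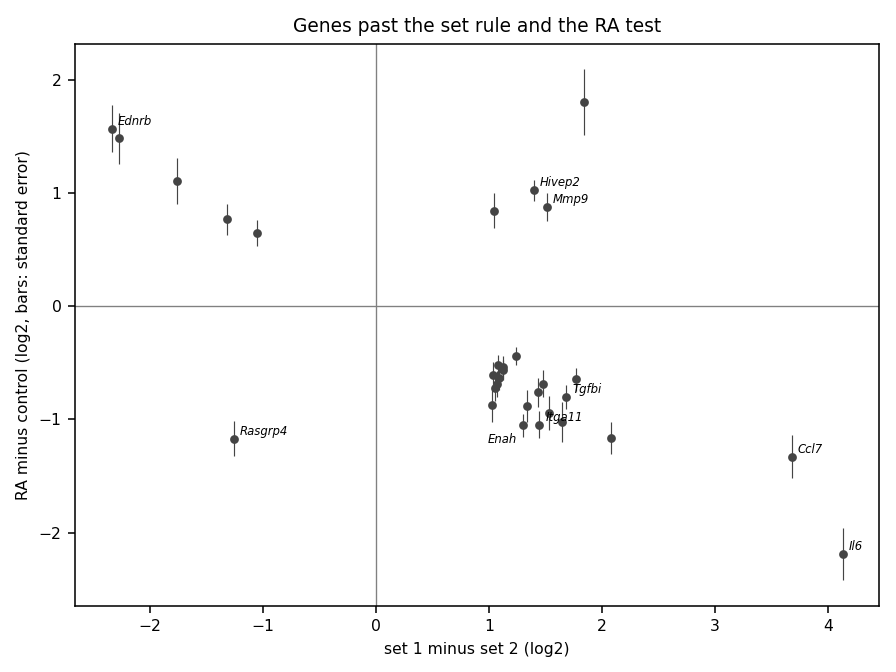
Set difference (x, set 1 minus set 2, log2) and RA difference (y, RA-treated minus control with the set as a covariate, log2, bars for the standard error) of the 31 genes past both rules, with the symbols of most of the genes named in the text. Of these genes, 21 lie at the lower right, led by Il6 at 4.13 and -2.19.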

How the data were processed

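RNA was sequenced from 3 control and 3 RA-treated libraries of mouse BMSCs. The authors deposited raw read counts for each gene, without normalization, in a separate table for each library. The submitters' processing notes name Bowtie2 2.2.3 and the build mm10, and the counting program is not given in the sources used here. Of 25722 listed genes all had a count in at least 1 library, and 24 symbols that had been turned into dates were replaced from GENCODE M21 (GRCm38), which also gave the coordinates.

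Counts were analysed in R 4.3.3 with edgeR 4.0.16 (TMM scaling, filterByExpr, which kept 13842 genes). The set difference was the coefficient of a quasi-likelihood fit over all 6 libraries with treatment as a covariate, and it was given without a test. The RA difference was tested in the same fit, with Benjamini-Hochberg adjustment over all 13842 genes. CPM values use TMM-scaled totals, and log2 CPM a prior count of 2. The fit was tested on simulated data with known changes.

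The library sets, the gene lists and the rules were chosen with earlier results of these data known. Of the 60 lists, 54 were written from gene function and 6 were added after the values had been seen (resident macrophage and heme-recycling, C-type lectin receptor, Toll-like receptor, circadian clock, FOXO target and quiescence, and MiT-TFE nutrient response genes). The genes named were, per list, at most 4 past the rule in each direction or its best known members, the 15 largest differences in each direction with a mean of at least 10 CPM in the higher set (outside the division, histone and macrophage lists), and the 5 genes with the largest RA change in each direction. Cd209c, Ccl12, Cxcl3 and the genes named for low counts were chosen after their values were seen. Some named genes are not reported here. Promoter sequences are RefSeq's for GRCm38.p6. Where a set difference moved by over 1.5-fold on leaving out 1 library, the value without it is given in the text for the main genes. Alternatives were another scaling, filter, tool or fold, no treatment covariate, the replicate block, leaving out each library and, chosen after the data were seen, thinning to the smallest total.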

Additional observations from a re-analysis of the deposited data

How the results depend on the processing

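The same 3 libraries lay on the set 1 side of the first principal component with fewer or more genes, without the division, histone and macrophage lists (56.3% of the variance) and with treatment means removed. Genes higher and lower in set 1 numbered 1169 and 1160 with no filter on low counts, 1557 and 1474 at 1.5-fold, 115 and 130 at 4-fold, 867 and 531 when scaled to the total count alone, and 748 and 594 with libraries thinned to the smallest total. Leaving out 1 library gave 764 to 876 higher and 646 to 743 lower genes. Genes called for RA numbered 1274 with no filter, 516 with DESeq2 1.42.0, and 36 to 782 on leaving out 1 library. The cause of these shifts was not tested. Of 161 genes followed, 37 had a set difference that moved by over 1.5-fold without 1 library, 30 of them without control 2 and 28 without RA-treated 3. The control and RA-treated libraries numbered 2 share a set, as do those numbered 3, while those numbered 1 do not. The correlations of their deviations from the treatment means were -0.51, 0.343 and 0.572 for numbers 1, 2 and 3, so the numbers do not pair all libraries. With the replicate block, 916 genes were higher, 678 lower and 122 called for RA. The set difference reversed for Nnt (0.89), mt-Atp8 (-2.05) and mt-Atp6 (-0.053). Nnt has 2 overlapping annotated entries, at -1.24 and -0.96 in the main fit, with 20 and 481 counts in RA-treated 2, so its value is uncertain. The block moved a further 68 of the 161 set differences and 22 of 60 list medians beyond the spread between libraries, and leaving out control 2 or RA-treated 3 moved 15 and 11 list medians. The erythroid and megakaryocyte list changed sign, from -2.46 to 1.20, under a minimum of 10 counts per library, which left fewer of its genes. Depth limits genes near 3 counts, such as Hbb-bt, Cdkn1c and Il6 in RA-treated 3. With genes in 4 equal bins of GC content, 5.72% were higher and 2.75% lower in set 1 in the lowest bin, and 3.96% and 6.45% in the highest, and the part of base composition was not tested.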

Other observations

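Of 14 heat shock genes, which encode chaperones, 0 were past the rule in either direction, with a median of 0.58. Complement genes had 0 of 18 past the rule and a median of -0.36, and C1qa, the first component of the classical pathway, was at 761 to 844 CPM in set 1 and 1126 to 1237 CPM in set 2. Of 20 p53 target genes 2 were lower (the death activator Bbc3 at -1.26, and Sesn1) and the median was -0.02. Of 17 Wnt pathway genes 1 was higher, the inhibitor Nkd2 at 1.03, a share near the 5.33% of all genes tested. Of 9 Notch pathway genes 0 were past the rule.

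Retinoid response genes were compared too, since they carry the treatment. Cyp26b1, which degrades RA, was at 124, 110 and 87.1 CPM in RA-treated 1, 2 and 3 and at no more than 5.96 CPM in the controls, and its set difference was 0.38. Of 14 retinoid response genes 2 were higher in set 1, among them Aldh1a1 at 1.74, at no more than 1.17 CPM in any library. Of 20 NRF2 target genes 2 were higher, among them the quinone reductase Nqo1 at 1.16. Of 17 matrix metalloproteinase and TIMP genes 4 were higher and 0 lower, with Timp1, an inhibitor of these enzymes, at 178 CPM in RA-treated 1, 102 in RA-treated 2 and 266 in control 2, against 67.2, 77.6 and 35.3 CPM in control 1, control 3 and RA-treated 3.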
